A study of Mus musculus with 80 samples.

Results

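The alpha-1-antitrypsin genes Serpina1a, Serpina1b, Serpina1c, Serpina1d and Serpina1e, the antichymotrypsin-like genes Serpina3k, Serpina3m and Serpina3n, and the transcribed pseudogene Serpina4-ps1 lie together on mouse chromosome 12. These 9 genes were found by symbol in the deposited tables of expected counts, among 18877 genes of the DEHP table and 17672 genes of the DCA table. All 9 passed the filter on low counts in every comparison below. Livers came from male B6C3F1 mice, 4 weeks old by the labels. For the study collected in 2013, 16 mice ate di(2-ethylhexyl)phthalate (DEHP, a plasticizer) in the feed for 7 days at 0, 1500, 3000 or 6000 ppm, with 4 mice per dose. For the study collected in 1994, 24 mice were given DCA (dichloroacetic acid, which forms when water is chlorinated) in drinking water at 0, 1, 2 or 3.5 g/L, with 6 mice per dose. How long the DCA exposure lasted is not given in the sources used here. Each animal gave a frozen and a formalin-fixed, paraffin-embedded (FFPE) library, so there were 80 libraries from 40 animals. Frozen RNA came from mixed lobes and FFPE RNA from named lobes (left lateral and right medial, and in the DEHP study also caudate), so that fixation and lobe cannot be told apart. All groups share the hybrid strain, a cross of C57BL/6 and C3H/He parents, while the genome build named for the alignment, mm10, is of C57BL/6J.

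Serpins are inhibitors that trap a protease when it cleaves an exposed bait, the reactive centre loop. Alpha-1-antitrypsin is made and secreted by hepatocytes in large amounts and is best known for blocking neutrophil elastase. The mouse carries several near-identical copies where humans have a single gene, and the copies differ most in the bait loop and so in the proteases they can meet. The mouse Serpina3 genes are a second local expansion. Serpina3n is an acute phase gene that blocks granzyme B and other serine proteases, and Serpina3k is known as a kallikrein-binding protein.

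Expected counts per library summed to between 16582972 and 29550624 in DEHP frozen, 11673020 and 18866126 in DEHP FFPE, and 3067666 and 16890024 in DCA frozen liver. In DCA FFPE they ran from 109292 to 8434617 with a median of 504136.5. The precursor ribosomal RNA Rn45s took between 4.89% and 84.2% of the counts there, against at most 1.57% in DCA frozen liver. The labels tie each library to its own animal, and no pair of libraries of a group held identical values. The table headers put a code before each library, and what the code stands for is not given in the sources used here. These header codes were uneven over the doses. The DEHP frozen controls carried 2 codes, which only 3 treated frozen libraries shared. In DCA FFPE all 6 controls carried 1 code and all libraries of 2 and 3.5 g/L another, so code and dose cannot be told apart directly at those doses. Only the 1 g/L group, with 3 libraries under each code, links the 2 codes. The headers also hold a tag of L and a number, whose meaning is not given in the sources used here. All 6 DCA frozen controls had L5, and every frozen library of 2 and 3.5 g/L had L3 or L4. Tag and dose therefore cannot be told apart at those doses. The frozen libraries with L3, of animals 73, 74 and 75 at 2 g/L, held 3854951, 3067666 and 3196082 counts. The frozen libraries of DCA animals 52 (1 g/L), 98 and 101 (both 3.5 g/L) stood apart in this gene cluster, with Serpina3m at 665, 477 and 501.9 FPKM where the other 21 lay between 84.5 and 222. Whether the genotypes or labels of these animals differ was not tested. FPKM, fragments scaled by transcript length and library size, is the scale on which levels of different genes are compared below, and RPKM or expected counts are named where used beside it.

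Because the Serpina1 copies are so alike, their sequences are shown before their values. The annotated coding sequences of the 5 genes were between 96.29% and 98.47% identical over 10 pairs. Those of the 3 Serpina3 genes were between 82.85% and 91.75% identical. Of the 50-base windows along a representative GENCODE transcript, 25.8% were found in no other gene for Serpina1c, 32.6% for Serpina1a, 49.1% for Serpina1d, 64.2% for Serpina1b and 64.4% for Serpina1e. For Serpina3k, Serpina3m and Serpina3n that share was 86.0%, 80.9% and 93.1%, and for Serpina4-ps1 100%. Counts of the Serpina1 copies, and to a lesser degree of the Serpina3 genes, are therefore estimates that split reads the copies share. The 60 bases of coding sequence that differ most between the Serpina1 copies lie in the last exon and hold 18 columns with a difference, against a mean of 4.25 over all windows of that length. They are shown 5′ to 3′ on the coding strand, read from GENCODE transcripts on GRCm38, with capitals where a base is not one that at least 3 of the 5 copies share. In 2 columns no base reaches 3 copies, so all 5 letters are in capitals there.
Serpina1a last exon: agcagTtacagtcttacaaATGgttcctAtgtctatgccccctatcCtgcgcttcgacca
Serpina1b last exon: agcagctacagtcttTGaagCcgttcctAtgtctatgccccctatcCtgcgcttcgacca
Serpina1c last exon: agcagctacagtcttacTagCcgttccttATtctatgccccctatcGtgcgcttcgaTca
Serpina1d last exon: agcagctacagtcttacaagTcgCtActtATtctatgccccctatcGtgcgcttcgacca
Serpina1e last exon: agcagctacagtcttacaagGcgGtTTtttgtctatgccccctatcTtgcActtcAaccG
Serpina1e has 8 bases in capitals there and the other copies 5 or 6, and no 2 copies have the same letters over the stretch. It lies on the minus strand of chromosome 12 at 103947100 to 103947159 in Serpina1e, exon 5 of 5.

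Upstream of the start site the copies stay alike, between 92.55% and 97.87% identical over 10 pairs. The stretch shared by the 5 RefSeq promoters (GRCm38.p6) is shown for the same reason, with capitals where a base differs from the majority of the copies.
Serpina1a upstream: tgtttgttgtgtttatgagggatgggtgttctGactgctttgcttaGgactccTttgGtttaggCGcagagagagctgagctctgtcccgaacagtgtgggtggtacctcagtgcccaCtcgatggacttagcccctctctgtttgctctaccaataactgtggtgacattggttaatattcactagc
Serpina1b upstream: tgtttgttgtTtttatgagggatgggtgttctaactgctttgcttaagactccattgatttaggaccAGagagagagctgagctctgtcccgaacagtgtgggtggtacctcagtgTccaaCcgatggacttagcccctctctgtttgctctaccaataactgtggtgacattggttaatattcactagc
Serpina1c upstream: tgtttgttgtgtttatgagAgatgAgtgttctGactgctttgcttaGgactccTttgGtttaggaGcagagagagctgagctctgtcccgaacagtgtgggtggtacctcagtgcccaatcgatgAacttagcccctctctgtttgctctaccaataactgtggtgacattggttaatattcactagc
Serpina1d upstream: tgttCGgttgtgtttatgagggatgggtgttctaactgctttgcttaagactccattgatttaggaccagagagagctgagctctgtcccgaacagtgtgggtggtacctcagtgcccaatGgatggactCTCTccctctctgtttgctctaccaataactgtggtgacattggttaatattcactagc
Serpina1e upstream: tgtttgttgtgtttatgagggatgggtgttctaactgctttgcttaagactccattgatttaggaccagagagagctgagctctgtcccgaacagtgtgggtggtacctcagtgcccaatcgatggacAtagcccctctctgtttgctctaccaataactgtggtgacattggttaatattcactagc
The Serpina1e stretch covers 103956960 to 103957147 on the minus strand of chromosome 12 (GRCm38) and begins 250 bases before its annotated start. It has 1 base in capitals against 5 to 8 in the other copies, so its upstream letters are nearest to the majority. The letters GTTAAT, a core element bound by the hepatocyte factor HNF1, were found once in each of the 5 promoters and in 7.10% of 32851 promoters of the same length, both strands searched. The STAT motif TTCNNNGAA had no match in these windows or in that of Serpina3n, and is present in 8.30% of all promoters. The full HNF1 palindrome and the PPAR direct repeat, searched in their strict forms, also had no match in the 6 windows, and only 0.009% and 0.04% of all promoters hold them. Serpina3k, Serpina3m and Serpina4-ps1 are named only. In GENCODE, Serpina3m starts at the same base as Serpina3k, and the Serpina1b gene model runs across Serpina1d. The RefSeq models of these pairs do not overlap. There Serpina1b ends at 103738189 and Serpina1d starts at 103763587, and Serpina3k ends at 104345739 and Serpina3m starts at 104387157. The processing notes name no gene models, and whether overlapping models affect the deposited counts was not tested.

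In untreated frozen liver 6 of the 9 genes were abundant. In DCA controls the median FPKM was 14001 for Serpina1e, 9315 for Serpina3k, 5230 for Serpina1c, 3644 for Serpina1b, 2580 for Serpina1d and 2298 for Serpina1a. Serpina3n, Serpina3m and Serpina4-ps1 followed at 190, 152 and 129 FPKM. Neighbours in this order did not overlap down to Serpina1b, whereas Serpina1d and Serpina1a overlapped, as did Serpina3n, Serpina3m and Serpina4-ps1. In DEHP controls the median of Serpina1e was 7974 FPKM, beside 7450 for Serpina3k, and their ranges overlapped. The second deposited scale, RPKM, put Serpina3k above Serpina1e there and Serpina1d above Serpina1a. Serpina1c, Serpina1b, Serpina1a and Serpina1d followed at 4471, 3090, 2025 and 1944 FPKM.

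**Figure D1:**
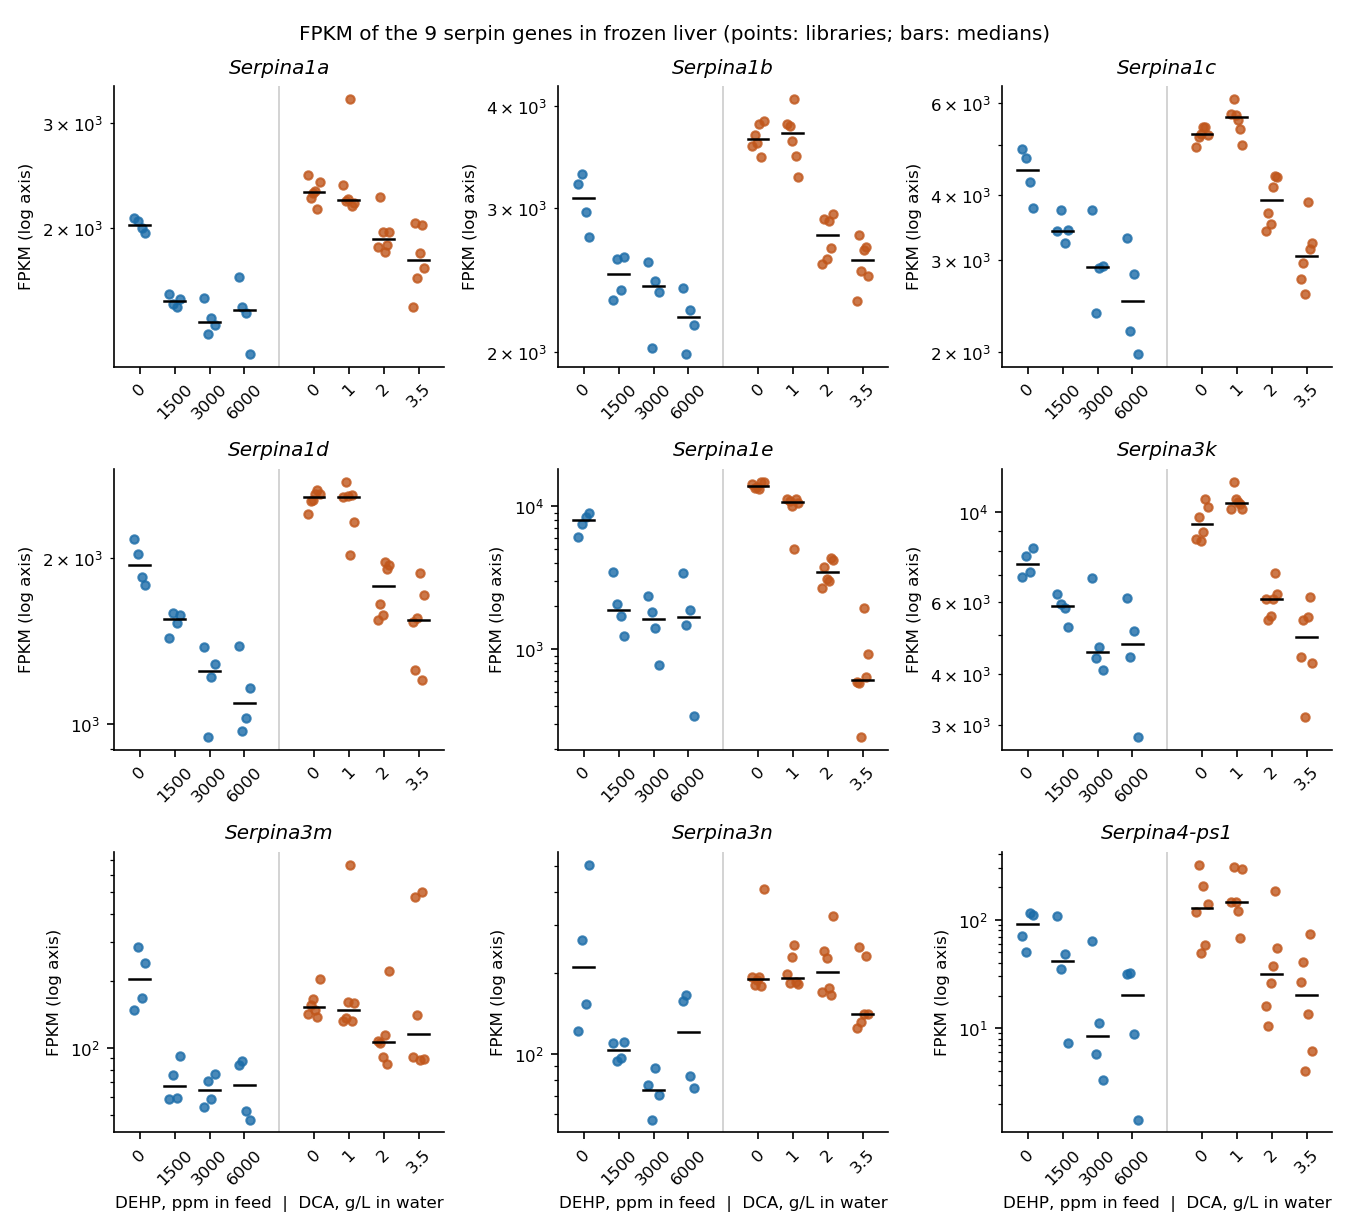
FPKM (log axis) of each gene in every frozen library, by DEHP dose in ppm and DCA dose in g/L, with black bars at the group medians. Serpina1e shows the widest dose range of the Serpina1 copies, and animals 52, 98 and 101 are the high Serpina3m points at 1 and 3.5 g/L DCA.

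Serpina1e, the most abundant copy in untreated DCA livers, fell at every DEHP dose and at the upper doses of DCA. In DEHP frozen liver its FPKM was 6093, 7559, 8389 and 9008 in controls, and 3490, 2072, 1702 and 1239 at 1500 ppm. At 3000 ppm it was 2374, 1830, 1414 and 776, and at 6000 ppm 3434, 1473, 1881 and 341. Every treated library lay below every control, while the treated groups overlapped with each other. The shares of all genes that separated in this way are given with the family counts below. The log2 fold change against dose 0 was -1.91 ± 0.50 (SE) at 1500 ppm, -2.24 ± 0.51 at 3000 ppm and -2.19 ± 0.50 at 6000 ppm, the last being 21.8% of the control level. Adjusted p over 13802 genes, by edgeR's quasi-likelihood test with Benjamini-Hochberg adjustment, was 0.0317, 0.00725 and 0.00919. At 1500 ppm the call was lost when any of 6 of the 8 animals was left out (controls 45C, 63A and 75A, treated 40A, 60A and 72B; adjusted p 0.0639 to 0.0901). It was also lost with the second deposited count table (adjusted p = 0.0777) and when the header code was added to the model (-2.57, adjusted p = 0.0509).

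Under DCA the fall of Serpina1e was graded. Frozen controls spanned 13288 to 14890 FPKM with a median of 14001. At 1 g/L the range was 5015 to 11202 with a median of 10791, where animal 52 gave the lowest value and the other 5 lay at 10117 or above. At 2 g/L it was 2673 to 4381 with a median of 3448, and at 3.5 g/L 243 to 1933 with a median of 612. No 2 of the 4 dose groups overlapped. The log2 fold change was -0.60 ± 0.29 (SE) at 1 g/L, -2.15 ± 0.30 at 2 g/L and -4.22 ± 0.33 at 3.5 g/L, where the level was 5.36% of control. In edgeR's quasi-likelihood test with Benjamini-Hochberg adjustment over 13089 genes, adjusted p was 0.179, 9.09e-06 and 4.35e-10. Fitted with the 2 compared groups alone, the 1 g/L change had an adjusted p of 0.0284. Without animals 52, 98 and 101 the change was -0.46, -2.16 and -4.06 at the 3 doses, with adjusted p of 0.334, 8.59e-06 and 2.72e-08.

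The other 4 alpha-1-antitrypsin copies moved by less. Serpina1a under DEHP in frozen liver was 2076, 2052, 1997 and 1959 FPKM in controls and 1654, 1476, 1440 and 1230 at 6000 ppm. The FPKM of Serpina1d was 2167, 2039, 1849 and 1790 in controls and 1388, 972, 1023 and 1162 at 6000 ppm. In both genes every treated library lay below every control, as in 8.04% of all genes on counts scaled by library size. At 6000 ppm the log2 fold change was -0.55 ± 0.11 (SE) for Serpina1a, -0.54 ± 0.12 for Serpina1b, -0.84 ± 0.17 for Serpina1c and -0.85 ± 0.14 for Serpina1d. The adjusted p values, by the same edgeR test, were 0.00478, 0.00638, 0.00380 and 7.53e-04. At 1500 ppm Serpina1a was called (-0.44 ± 0.11, adjusted p = 0.0292, edgeR) and the other 3 were not, and at 3000 ppm Serpina1a, Serpina1c and Serpina1d were called. The Serpina1a call at 1500 ppm was lost without any animal other than control 32A (adjusted p 0.0568 to 0.0856), and the Serpina1c call at 3000 ppm without any other than 35A (0.0505 to 0.119). With the header code as a term only Serpina1d of these 4 kept its call at 6000 ppm, and none did at the lower doses.

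Under DCA none of these 4 copies was called at 1 g/L, and all 4 were lower at 2 and 3.5 g/L. Serpina1c ranged from 4943 to 5416 FPKM in controls (median 5230), 4991 to 6125 at 1 g/L (median 5639), 3410 to 4343 at 2 g/L (median 3915) and 2577 to 3872 at 3.5 g/L (median 3057). Its groups at 2 and 3.5 g/L lay wholly below the controls. The changes at 2 g/L were -0.40 for Serpina1a, -0.56 for Serpina1b, -0.58 for Serpina1c and -0.69 for Serpina1d on the log2 scale. At 3.5 g/L they were -0.50 ± 0.09 (SE), -0.63 ± 0.07, -0.88 ± 0.09 and -0.87 ± 0.10, with adjusted p between 2.69e-08 and 8.32e-05 in edgeR's quasi-likelihood test. Animals 98 and 101 had the highest Serpina1a (2036 and 2026 FPKM) and the lowest Serpina1d (1256 and 1202 FPKM) of the 3.5 g/L group. Animal 52 had 3296 FPKM of Serpina1a, above every other frozen library of the study, and the lowest Serpina1d of its group, 2025 FPKM. Serpina11, another clade A serpin of the cluster, was 55.5, 35.9 and 44.2 FPKM in animals 52, 98 and 101. Without these 3 animals the 3.5 g/L changes were -0.59, -0.68, -0.87 and -0.74, and all 4 kept an adjusted p under 0.05.

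**Figure D2:**
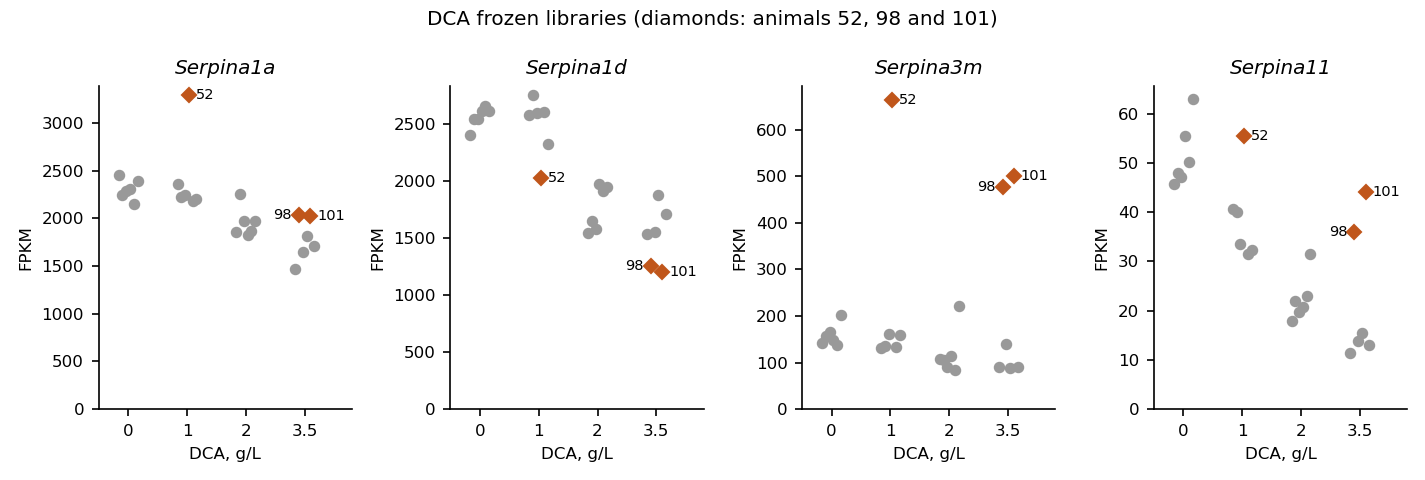
FPKM of Serpina1a, Serpina1d, Serpina3m and Serpina11 in the DCA frozen libraries by dose in g/L, with animals 52, 98 and 101 as labelled diamonds. Serpina3m of 665, 477 and 501.9 FPKM sets these 3 libraries off from the other 21, and Serpina1d is lowest in them within their dose groups.

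Counted over the family, DEHP frozen liver had 4 of 9 genes called lower at 1500 ppm, where 2.14% of all 13802 genes were. At 3000 ppm it was 6 of 9 against 6.48% of all genes, and at 6000 ppm 8 of 9 against 4.72%. The median log2 fold change of the 9 genes was -0.44, -0.68 and -0.85, beside -0.03 over all genes at each dose. For DCA frozen liver, 0 of 9 was called at 1 g/L by edgeR or by DESeq2, 1 had an unadjusted p under 0.05, and 11.1% of all genes were called in either direction. At 2 g/L 6 of 9 were called lower against 13.7% of all 13089 genes, and at 3.5 g/L 8 of 9 against 21.1%. The median of the 9 genes was -0.02, -0.58 and -0.87 on the log2 scale, beside -0.01, -0.01 and -0.02 over all genes. The count does not measure 9 separate events, since the copies share reads. With the header code as a term the DEHP frozen counts were 1, 3 and 3. Separation of dose groups was counted on counts scaled by library size. Every treated DEHP frozen library lay below every control for 8, 7 and 8 of 9 genes, and for 5.47%, 9.05% and 8.04% of all genes. In DEHP FFPE it was 2, 4 and 5 of 9 against 5.5%, 4.98% and 5.99%. In DCA frozen liver it was 1, 6 and 6 against 2.25%, 5.17% and 9.42%, and in DCA FFPE 0, 3 and 6 against 0.922%, 3.52% and 4.84%. These counts depend on the scale. By FPKM they were 8, 8 and 8 of 9 in DEHP frozen liver and 7, 6 and 5 in DEHP FFPE. For DCA they were 1, 5 and 6 by FPKM in frozen liver, and 0, 0 and 1 in FFPE. The share of all genes was not counted on FPKM.

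The make-up of alpha-1-antitrypsin RNA shifted with dose. Serpina1e was 40.8% (median; range 33.0% to 46.7%) of the summed Serpina1 FPKM in DEHP frozen controls, and 17.3%, 17.8% and 19.1% at the 3 doses. At 6000 ppm the range was 4.96% to 28.2%, and no treated library reached a control. Under DCA the frozen share was 50.7% (48.4% to 52.0%) in controls, 43.0% (25.1% to 45.4%) at 1 g/L, 25.4% (21.6% to 28.9%) at 2 g/L and 6.66% (2.84% to 15.9%) at 3.5 g/L. At 3.5 g/L Serpina1c led with a median of 31.9%, followed by Serpina1b at 27.2%, Serpina1a at 18.2% and Serpina1d at 16.2%. The summed FPKM of the 5 copies had a median of 27562 in DCA frozen controls and 9658 at 3.5 g/L, and of 19374 and 8760 in DEHP frozen liver at 0 and 6000 ppm. Shares taken from expected counts were 39.1% and 17.9% in DEHP frozen liver at 0 and 6000 ppm, and 48.7% and 6.14% in DCA frozen liver at 0 and 3.5 g/L.

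**Figure D3:**
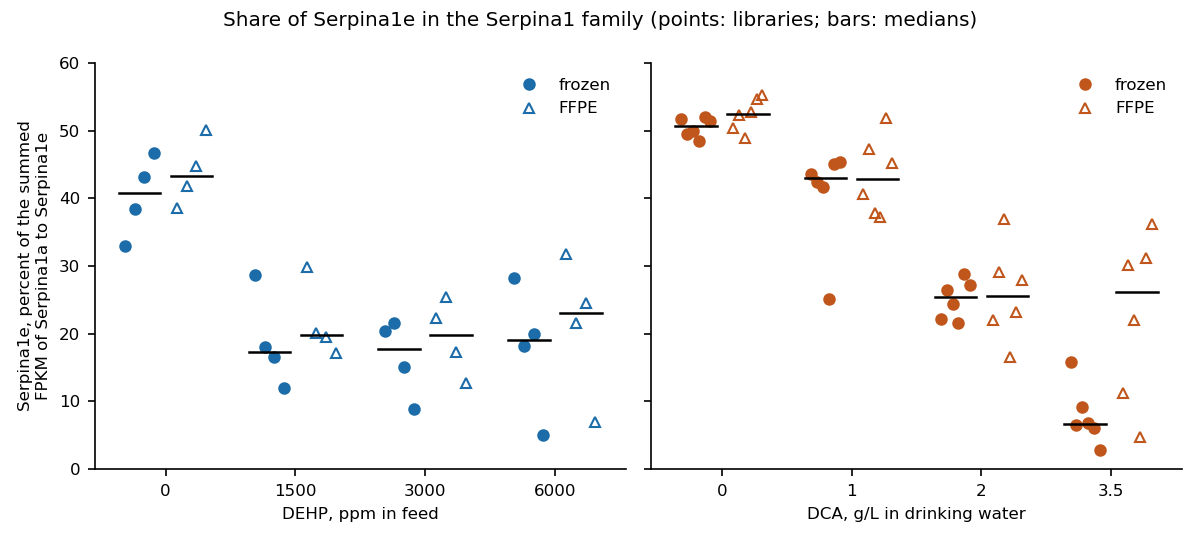
Serpina1e as a percent of the summed FPKM of the 5 Serpina1 copies in every library, by dose, with filled circles for frozen, open triangles for FFPE and bars at the medians. In frozen liver the median was 40.8% in DEHP controls and 17.3%, 17.8% and 19.1% at 1500, 3000 and 6000 ppm. It went from 50.7% to 6.66% over the DCA doses. In DCA FFPE at 3.5 g/L it was 26.1%, with a range of 4.79% to 36.3%. Those libraries held 248 to 5095 counts of all 9 genes together.

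Serpina3k, the second most abundant of the 9 genes by FPKM, fell at the top DEHP dose and at the upper 2 DCA doses, and was not called at 1500 or 3000 ppm DEHP or at 1 g/L DCA. Its FPKM in DEHP frozen liver was 6935, 7778, 7122 and 8176 in controls and 6133, 4416, 5092 and 2809 at 6000 ppm, with no overlap. The changes were -0.40 ± 0.21 (SE), -0.56 ± 0.21 and -0.77 ± 0.21 on the log2 scale at the 3 doses, and only the last passed the edgeR test (adjusted p = 0.303, 0.0860 and 0.0257). That call was lost when the header code was added to the model (adjusted p = 0.128) and in the fit of the compared groups alone (adjusted p = 0.0771). Leaving out control 45C, 63A or 75A, or treated 44A or 8C, gave adjusted p between 0.0504 and 0.0772. Under DCA, frozen Serpina3k spanned 8477 to 10771 FPKM in controls (median 9315), 10149 to 11858 at 1 g/L (10516), 5441 to 7069 at 2 g/L (6122) and 3138 to 6172 at 3.5 g/L (4926). The upper 2 dose groups lay below all controls. By edgeR the log2 changes were 0.08 ± 0.12 (SE), -0.79 ± 0.12 and -1.09 ± 0.12, with adjusted p = 0.675, 1.66e-05 and 6.26e-08.

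Serpina3m fell at every DEHP dose, while its course under DCA depended on 3 libraries. In DEHP frozen liver it was 149, 283, 168 and 240 FPKM in controls, 59.2, 75.8, 59.8 and 92.1 at 1500 ppm, 54.3, 71.1, 58.9 and 76.5 at 3000 ppm, and 83.7, 87.3, 52.3 and 47.6 at 6000 ppm. All 12 treated libraries lay below the lowest control, and the dose groups overlapped each other. The log2 changes were -1.58 ± 0.25 (SE), -1.67 ± 0.25 and -1.71 ± 0.25, with adjusted p of 0.00131, 3.88e-04 and 2.90e-04 in edgeR's quasi-likelihood test. Serpina3m was called at all 3 doses also with the header code as a term. With DCA it spanned 138 to 203 FPKM in controls (median 152), 132 to 665 at 1 g/L (148), 84.5 to 222 at 2 g/L (106) and 88.7 to 501.9 at 3.5 g/L (115). The change at 3.5 g/L was 0.41 ± 0.44 (SE, adjusted p = 0.479, edgeR), whereas without animals 52, 98 and 101 it was -0.76 (adjusted p = 0.00651). These animals were left out after their high Serpina3m was seen, which lowers the treated level by selection. That call therefore cannot show a fall. At 2 g/L, where no library was left out, the change went from -0.55 with adjusted p = 0.383 to -0.55 with adjusted p = 0.0284. The doses share an estimate of the spread, so this lower adjusted p also follows from the selection. In FFPE liver of the same animals Serpina3m was 67.9 FPKM (16.1 expected counts) in animal 52 and 88.9 (28.7 counts) in animal 101, the highest of their groups, and 0 in animal 98.

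Serpina3n, the acute phase member, varied widely among controls. In DEHP frozen liver it was 121, 266, 153 and 504 FPKM at dose 0, 110, 94.2, 96.5 and 111 at 1500 ppm, 76.6, 57.0, 88.7 and 70.6 at 3000 ppm, and 158, 166, 83.1 and 74.5 at 6000 ppm. The lower 2 dose groups lay below all controls, and the 6000 ppm group overlapped with them. The log2 changes were -1.40 ± 0.36 (SE), -1.85 ± 0.37 and -1.21 ± 0.36, with adjusted p of 0.0296, 0.00315 and 0.0364 by edgeR. At 1500 ppm the call was lost without control 45C or 75A or any treated animal, with changes from -1.63 to -0.81 over all leave-outs. At 6000 ppm it was lost without control 45C or 75A or treated 64C or 8C, with changes from -1.43 to -0.62 and adjusted p up to 0.193. At 3000 ppm it was kept in each, from -2.09 to -1.27. With the header code as a term it was called at 3000 ppm and at neither other dose. Its DCA frozen controls spanned 178 to 411 FPKM (median 190) and the 3.5 g/L group 124 to 250 (median 141), overlapping. The change was -0.53 ± 0.21 (SE, adjusted p = 0.0487, edgeR). This call was lost in 5 other fits (adjusted p 0.0506 to 0.0872) and without treated animal 97, 99, 100 or 102, and without control animal 8, whose 411 FPKM was the highest value, it was -0.25 with adjusted p = 0.260. Without animals 52, 98 and 101 it was -0.86 with adjusted p = 0.00345.

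Serpina4-ps1, a transcribed pseudogene between the Serpina1 and Serpina3 groups, varied widely between animals. In DEHP frozen liver it was 71.0, 50.2, 115 and 111 FPKM in controls and 31.9, 32.2, 8.8 and 1.4 at 6000 ppm, without overlap. The change was -2.29 ± 0.91 (SE, adjusted p = 0.120, edgeR), so the separation of the groups did not pass the test. At 3000 ppm animal 35A had 64.2 FPKM and the others 3.3 to 11.2. Under DCA the pseudogene in frozen liver spanned 49.7 to 322 FPKM in controls (median 129) and 4.00 to 73.7 at 3.5 g/L (median 20.1), a change of -2.57 ± 0.66 (SE, adjusted p = 0.00273, edgeR) with overlapping groups.

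**Figure D4:**
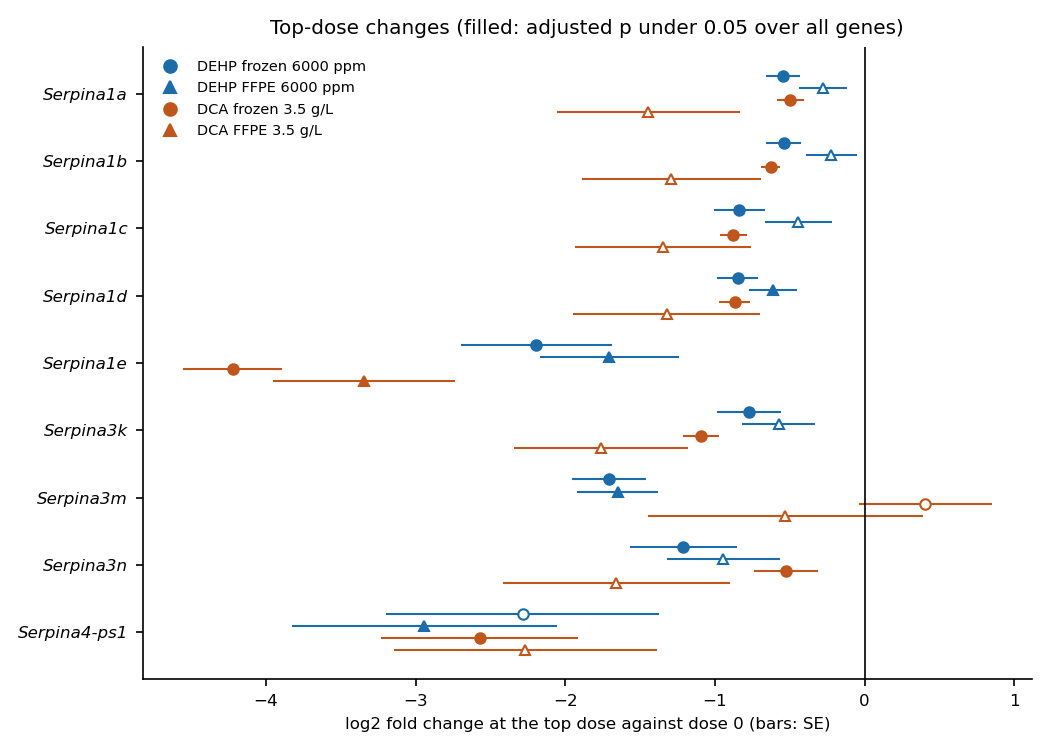
Log2 fold change at the top dose against dose 0 for each gene, with bars for the SE, circles for frozen and triangles for FFPE liver, filled where the adjusted p was under 0.05. Serpina1e at -4.22 in DCA frozen liver lies furthest from 0, and Serpina3m is the only gene above 0, at 0.41 in DCA frozen liver without a call.

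Fixed tissue of the DEHP animals showed the Serpina1e and Serpina3m changes again, from the same animals and so not as separate replicates. Serpina1e in FFPE was 5662, 5426, 6884 and 7986 FPKM in controls and 3589, 1187, 2204 and 338 at 6000 ppm, and the 4 animals of the top dose took the same order as in frozen tissue. Its log2 changes were -1.74, -1.97 and -1.71 ± 0.46 (SE) at the 3 doses, with adjusted p of 0.0359, 0.0127 and 0.0231 over 13581 genes by edgeR. Serpina3m was 78.5, 190, 117 and 139 FPKM in controls and 49.4, 42.1, 37.3 and 24.6 at 6000 ppm, again without overlap, with changes of -1.46, -1.71 and -1.65 ± 0.27. Serpina4-ps1 was called at 6000 ppm (-2.94 ± 0.89, adjusted p = 0.0379, edgeR), as was Serpina1d (-0.61 ± 0.16, adjusted p = 0.0198), and Serpina3n at 3000 ppm (-1.60 ± 0.38, adjusted p = 0.0135). Without 1 animal the Serpina4-ps1 call was lost in 6 of 8 cases, with 32A, 63A, 75A, 8C, 44A or 64C left out (adjusted p 0.0506 to 0.106). Serpina1e at 6000 ppm was lost without 75A or 44A (adjusted p 0.0543 and 0.0873), Serpina1d without 44A (0.0854), and Serpina3n at 3000 ppm without 75A (0.0549). In all, 2, 3 and 4 of 9 genes were called lower at the 3 doses, where 1.31%, 3.24% and 4.43% of all genes were. At 6000 ppm the count was 1 without animal 44A, 2 without control animal 75A, and 2 in the fit of the compared groups alone. At 1500 ppm the Serpina1e call was lost in 7 of 8 leave-outs (adjusted p 0.0598 to 0.102), kept only without control 32A.

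Header codes were better spread in DEHP FFPE, where 3 codes held both controls and treated libraries. Within them Serpina1e was lower than the controls of its code at every dose present, by differences of -1.43 to -3.88 in log2 CPM (counts scaled by library size). The 3 treated DEHP frozen libraries that shared a code with controls were lower by -1.61 (animal 35A, 3000 ppm), -2.71 (72B, 1500 ppm) and -4.58 (8C, 6000 ppm). For Serpina3m those 3 differences were -1.76, -1.26 and -2.23. For DCA frozen liver, within the code that held all controls, Serpina1e differed by -0.74, -2.17 and -4.50 at 1, 2 and 3.5 g/L. Within that code the header tag was L5 in all controls and L3 or L4 at 2 and 3.5 g/L, so tag and dose cannot be told apart there. The differences above rest on few libraries each and carry no test.

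Levels of several members differed between preparations. The frozen and FFPE libraries of 3 of the 4 DEHP controls also carried different header codes, whose part was not tested. In untreated DEHP livers 7 of 9 genes were called lower in FFPE than in frozen tissue of the same animal, where 16.7% of 14065 genes were. Serpina3k had the largest difference, -0.91 ± 0.08 (SE, adjusted p = 4.85e-07, edgeR with the animal as a block), with 6935, 7778, 7122 and 8176 FPKM in frozen and 3573, 4162, 4005 and 4364 in FFPE tissue. Serpina3m, Serpina1d, Serpina1b, Serpina1c, Serpina1a and Serpina3n differed by -0.72, -0.63, -0.57, -0.43, -0.36 and -0.30. The Serpina3n call was lost without animal 32A, 45C or 75A (adjusted p 0.0552 to 0.116). Serpina1e (-0.27 ± 0.11, adjusted p = 0.0737) and Serpina4-ps1 (0.01 ± 0.14) were not called. Without the block of animals, 3 of the 9 were called. The top-dose effect was not called different between preparations for any of the 9 genes by edgeR or by DESeq2 (0% of 14065 genes in all by edgeR), although 4 had an unadjusted p under 0.05. For Serpina1e the FFPE estimate was nearer to 0 by 0.45, without a call. Its 95% interval from a normal quantile was 0.14 to 0.77 on the log2 scale, which is narrower than the test implies.

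**Figure D5:**
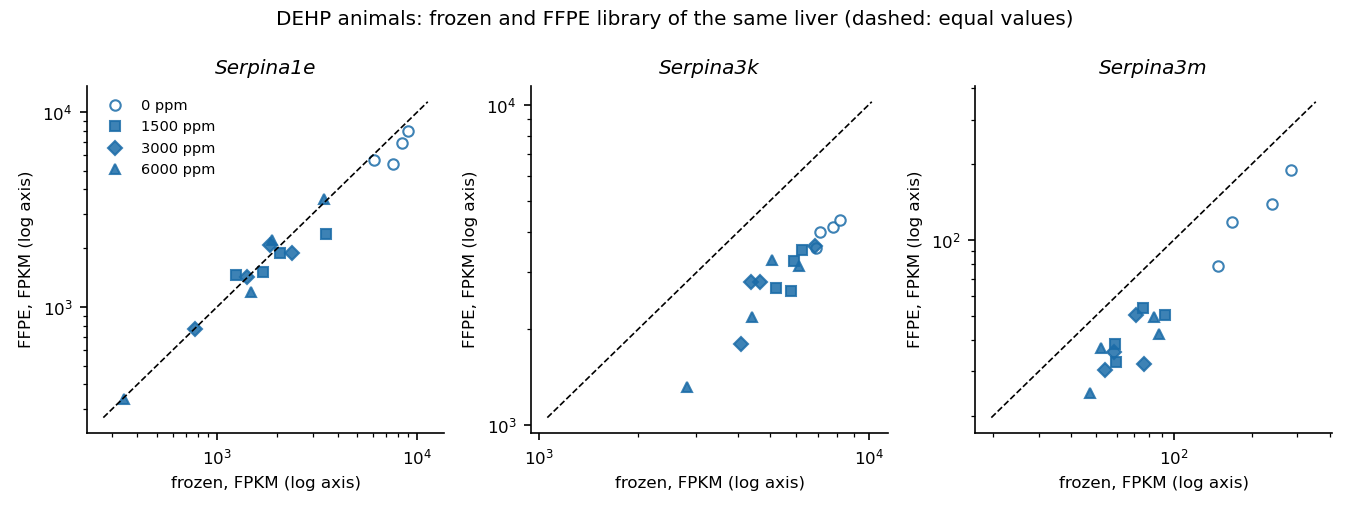
FPKM (log axes) in FFPE against frozen tissue of the same DEHP animal for Serpina1e, Serpina3k and Serpina3m, with open circles for controls and filled symbols for dosed animals. Serpina1e lies on both sides of the dashed line of equal values and below it in all 4 controls, while Serpina3k and Serpina3m lie below it in all 16 animals.

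In DCA FFPE the serpin signal had little depth behind it. Serpina1e rested on 4935 to 55893 expected counts in controls and on 45.1 to 475 at 3.5 g/L. Its FPKM spanned 1152 to 12113 in controls (median 9487), 365 to 10466 at 1 g/L (3310), 199 to 2140 at 2 g/L (520) and 185 to 1139 at 3.5 g/L (256). Controls and 3.5 g/L did not overlap in FPKM, and the 2 lowest controls, 1152 and 1317, were the libraries in which Rn45s took 74.4% and 73.4% of the counts, against 4.89% to 9.40% in the other 4. Rn45s took 25.2% to 84.2% of the counts at 2 g/L and 26.8% to 84.1% at 3.5 g/L. FPKM is scaled by library size, and the part of Rn45s in these FPKM values was not tested. At 3.5 g/L Serpina1e was 0.0270 times control by FPKM medians and 9.85% of control in the edgeR fit. The change was -0.51 ± 0.56 (SE), -2.56 ± 0.59 and -3.34 ± 0.61, with adjusted p of 1.00, 0.00644 and 3.17e-05 over 4772 genes by edgeR. All genes together had a median of -0.67 and -0.68 at 2 and 3.5 g/L under this scaling. By edgeR Serpina1e was the only member called at 2 and 3.5 g/L, where 0.0838% of all genes were called lower at each dose. DESeq2 called 2 members at 3.5 g/L. At 1 g/L 0 of 9 was called by either tool, with none at an unadjusted p under 0.05 by edgeR and 0.126% of all genes called in either direction. With the header code as a term the Serpina1e change at 2 and 3.5 g/L was -3.14 and -3.92, and adjusted p by edgeR was 0.605 and 0.117. That term rests on the 1 g/L group alone, with 3 libraries under each code. Within the code that held the controls, only 3 libraries of 1 g/L could be compared, with a Serpina1e difference of -1.10 in log2 CPM. Between preparations of the DCA controls 0 of 9 was called (1 at an unadjusted p under 0.05), against 1.78% of 11526 genes in either direction. Serpina3k came nearest, with -1.26 ± 0.38 (SE) and adjusted p = 0.0522, and it was called by DESeq2. All genes together had a median difference of -0.62 there, beside -0.61 for the 9 members. The DCA top-dose effect was called different between preparations for 0 of 9 genes by both tools, with 2 at an unadjusted p under 0.05 and 0.0607% of all genes called. The median of this difference was -1.68 over all genes and -1.13 over the 9 members.

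The chemicals have their own controls, so their top-dose effects in frozen liver could be set against each other. Doses, routes and years differ, and the difference is between these top doses only. Serpina1e fell less under 6000 ppm DEHP than under 3.5 g/L DCA, by 2.05 ± 0.57 (SE, 95% interval 0.93 to 3.16, adjusted p = 0.0142, edgeR). Serpina3m was lower under DEHP relative to DCA by -2.09 ± 0.61 (95% interval -3.30 to -0.89, adjusted p = 0.0202). These 2 of 9 calls compare with 13.3% of 13219 genes called in either direction. Without animals 52, 98 and 101 the Serpina3m difference was -0.95 with adjusted p = 0.0547, and without DEHP animal 29B, the top-dose frozen library with most Serpina1e, the Serpina1e difference was 1.497 with adjusted p = 0.0680. For Serpina1a, Serpina1b, Serpina1c and Serpina1d the differences lay between -0.03 and 0.10. Their 95% intervals were within -0.30 and 0.39, a range that leaves room for unequal effects.

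Across the frozen libraries the genes most like Serpina1e, by the lower of the 2 Pearson correlations of log2 CPM in DEHP (16 libraries) and DCA (24 libraries), were components of the terminal complement complex. C9, the pore-forming component, had r of 0.977 and 0.955. C8b and C8a, subunits of C8, had 0.956 and 0.942, and 0.944 and 0.930. At the top doses the log2 change of C9 was -1.53 ± 0.31 (SE) under DEHP and -2.69 ± 0.21 under DCA. For Serpina3k the nearest were Ces3b, a liver carboxylesterase (0.930 and 0.943), Selenbp2, a selenium-binding protein (0.937 and 0.930), and C8b (0.917 and 0.965). For Serpina3n they were Serpina10, the protein Z-dependent protease inhibitor (0.940 and 0.847), Nnmt, nicotinamide N-methyltransferase (0.912 and 0.817), and Fga, the fibrinogen alpha chain (0.894 and 0.806). These are descriptions among 8392 genes, over libraries that share dose groups and header codes. Among the members, Serpina1e and Serpina3k had r of 0.926 and 0.902, while Serpina1e and Serpina3m had 0.776 in DEHP and -0.03 in DCA liver.

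Of the other clade A serpins, 17 were listed in the DEHP table and 16 in the DCA table, and 10 were tested in each. At 6000 ppm DEHP 1 was called higher and 3 lower, and at 3.5 g/L DCA 2 higher and 5 lower, beside 7.05% higher and 4.72% lower of all genes in DEHP and 21.9% and 21.1% in DCA. Serpina12 (vaspin, an adipokine) fell, with log2 changes of -4.08 under DEHP and -4.51 under DCA. Its FPKM was 29.2 to 44.9 in DEHP controls and 0.14 to 7.53 at 6000 ppm, and 6.19 to 15.9 and 0.21 to 0.74 in DCA. Serpina7, the thyroxine-binding globulin gene, rose by 1.06 ± 0.22 (SE) and 4.25 ± 0.34, from 2.19 to 5.82 FPKM in DCA controls to 49.2 to 160 at 3.5 g/L. Serpina11 and Serpina10 fell in both, with changes of -1.05 and -0.92 under DEHP and of -1.34 and -0.71 under DCA. Under DCA Serpina6, which encodes corticosteroid-binding globulin, rose by 0.42, and Serpina9 and Serpina3g fell (-1.71 and -0.66). In DEHP frozen liver Serpina6 and Serpina3g changed by -0.11 and -0.07 without a call. Serpina9 changed by -1.91 there (adjusted p = 0.0931, edgeR), and in DEHP FFPE it was called lower (-2.46, adjusted p = 0.00916). Agt (angiotensinogen) changed by -0.23 and -0.21, and Serpina3f by -0.12 and -0.50, without a call. Serpina3h, tested in DEHP only, changed by 0.04, and Serpina3i, tested in DCA only, by 1.55 at under 1 FPKM, both without a call.

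Of 13 serpins of other clades tested in DEHP 3 were called lower, beside 4.72% of all genes. Of 12 tested in DCA 7 were lower and 1 higher, beside 21.1% and 21.9% of all genes. Serpind1 (heparin cofactor II) and Serpinf2 (antiplasmin) fell under both chemicals, with changes of -0.57 and -0.62 under DEHP and -0.29 and -0.53 under DCA. Serping1 (C1 inhibitor) and Serpinf1 (pigment epithelium-derived factor) fell under DCA, with -0.96 and -0.84, and changed by -0.45 and -0.41 under DEHP without a call. Of the related serine proteases of the liver, 7 of 12 were lower under DEHP and all 11 tested under DCA. The changes under DEHP and DCA were -1.16 and -1.63 for F11 (coagulation factor XI), -0.92 and -1.81 for Hgfac (hepatocyte growth factor activator), and -0.40 and -1.21 for F2 (prothrombin). Of 24 acute phase genes outside the serpins tested in DEHP 7 were lower, with a median of -0.79 beside -0.03 over all genes. In DCA 22 of 25 were lower, with a median of -1.28 beside -0.02. Pzp, a broad protease trap related to alpha-2-macroglobulin, fell under both (-0.58 and -1.28). Hamp (hepcidin) fell by 1.93 under DEHP and changed by 0.06 under DCA without a call, while Itih3, an inter-alpha-inhibitor heavy chain, fell by 1.29 under DCA.

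Of 15 transcription factors known to act on liver serpin genes, 0 were called at 6000 ppm DEHP by edgeR, where 11.8% of all genes were called in either direction, and 4 had an unadjusted p under 0.05. At 3.5 g/L DCA 7 were lower and 2 higher, where 21.1% of all genes were lower and 21.9% higher, with Nr1h4 (the bile acid receptor FXR) up by 0.89 ± 0.10 (SE) and Stat3, the acute phase transcription factor, down at -0.78 ± 0.10. In interleukin 6 and interleukin 1 signalling, 1 of 15 was higher and 2 lower in DEHP, and 1 higher and 6 lower in DCA. All genes had 7.05% higher and 4.72% lower in DEHP, and 21.9% and 21.1% in DCA, so the higher counts were no larger than that share. Il1rn, the interleukin 1 receptor antagonist, rose by 2.46 and 1.57 at levels of a few FPKM. Il1rap, the interleukin 1 co-receptor, fell under both (-0.93 and -1.14), and Il6ra, the interleukin 6 receptor, fell by 1.91 under DCA. Of 26 genes for export and quality control of secreted glycoproteins, 6 were lower and 1 higher under DEHP, and 12 lower and 3 higher under DCA, against the same shares of all genes. Sar1b, a GTPase of vesicles leaving the endoplasmic reticulum, rose by 0.71 and 0.70. Edem2 and Os9, which act in disposal of misfolded glycoproteins, fell under both, with -0.62 and -0.52 under DEHP and -0.41 and -1.15 under DCA.

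Markers of several liver cell types were also called different, and their part in the serpin changes was not tested. Beside the counts below, 4.72% of all genes were called lower and 7.05% higher in DEHP frozen liver, and 21.1% lower and 21.9% higher in DCA frozen liver. The summed CPM of 9 hepatocyte markers was 91322 to 104584 in DEHP frozen controls and 67377 to 80055 at 6000 ppm, with 4 of 9 called lower. It was 118468 to 145535 in DCA frozen controls and 86294 to 110527 at 3.5 g/L, with 7 called lower and 1 higher. Kupffer cell markers summed to 186 to 305 and 244 to 375 CPM in DEHP, and to 298 to 407 and 159 to 241 in DCA, where 8 of 10 were lower. Red blood cell markers went from 500 to 1395 CPM to 305 to 616 in DCA, with 4 of 4 tested lower. Endothelial markers summed to 337 to 403 and 327 to 417 CPM in DEHP, where 1 of 10 was higher, and to 506 to 573 and 436 to 484 in DCA, where 4 of 10 were lower. Stellate cell markers summed to 372 to 449 and 347 to 425 CPM in DEHP, where 1 of 10 was higher, and to 595 to 912 and 473 to 641 in DCA, where 7 of 10 were lower. Bile duct markers summed to 30.6 to 47.7 and 25.1 to 50.1 CPM in DEHP, and to 26.6 to 35.3 and 24.2 to 36.2 in DCA, and none of the 4 and 5 tested was called by edgeR (1 and 0 at an unadjusted p under 0.05). Neutrophil markers, of which Mpo was at 0 in DEHP controls and Camp in DCA controls, summed to at most 15.4 CPM in those 4 groups, lymphocyte markers to at most 13.5 and exocrine pancreas markers to at most 3.56. In these bulk livers fewer cells of a type and less RNA per cell cannot be told apart.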

How the data were processed

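RNA was measured by ribosome-depleted, stranded total RNA sequencing from 100 ng of input. The submitters' processing notes name CASAVA, STAR 2.4, RSEM and mm10. The authors deposited, for each gene and library, expected counts estimated by RSEM, which split reads shared by near-identical genes, and FPKM values. A second set of tables deposited by the authors gives counts and RPKM. Expected counts were rounded to whole numbers. Genes were filtered with filterByExpr (minimum count 10), scaled by TMM and tested in edgeR 4.0.16 (glmQLFit, glmQLFTest; limma 3.58.1, R 4.3.3), each dose against dose 0 of the same chemical and preparation, with all doses in 1 fit. FFPE was compared with frozen tissue with the animal as a block, because both libraries came from the same animal. P-values were adjusted by Benjamini-Hochberg over all genes tested, with 0.05 as the threshold, in 17 comparisons. DESeq2 1.42.0 was an alternative. Standard errors are the fold change divided by the root of the F statistic.

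The 9 genes, the gene lists and the tests were chosen with earlier results of these data known. The text names all 9 genes, every tested gene of the other clade A serpins, and from each other pathway list the 2 genes called at the top dose in frozen liver of each chemical with the smallest adjusted p. It also names the 3 genes most like Serpina1e, Serpina3k and Serpina3n, by the lower of 2 Pearson correlations among genes whose mean log2 CPM reached 2, leaving out predicted genes and clones. Counts per library limit precision most in DCA FFPE, where totals went down to 109292. Shares of the Serpina1 sum were planned on expected counts and are given on FPKM, with the count shares beside them. Motifs and sequence identities were computed from RefSeq GRCm38.p6 promoters and GENCODE transcripts. The edgeR steps were tested on simulated data. As a check of the pairing, each frozen library's deviations from its group mean were correlated with those of the FFPE libraries of its group: in DEHP 13 of 16 animals correlated best with their own FFPE library (median r 0.388 over 13445 genes), and in DCA 13 of 24 (median r 0.0414 over 4761 genes).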

Additional observations from a re-analysis of the deposited data

Results flagged for a closer look

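Within groups of 4 to 6 libraries, 13 of 144 group values held a library set off from the others by Dixon's criterion, where chance gives about 1 in 20, or 7.2. The genes come from the same libraries and share reads, so the 144 values are not independent. Setting 13 beside 7.2 therefore cannot show an excess over chance. In DCA frozen liver at 1 g/L, animal 52 had Serpina3m at 665 FPKM (others 132 to 161), Serpina1a at 3296 (others 2181 to 2362) and Serpina1e at 5015 (others 10117 to 11202). In the same group animal 50 had Serpina3k at 11858 FPKM (others 10149 to 10750). Among DCA frozen controls, animal 8 had Serpina3n at 411 FPKM (others 178 to 194). At 2 g/L in frozen liver, Serpina1a was 2256 FPKM in animal 74 (others 1821 to 1971), and Serpina4-ps1 was 184 in animal 77 (others 10.5 to 54.5). Serpina3m was 222 FPKM in animal 78 (others 84.5 to 114).

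The FFPE library of animal 78 was also set off, with Serpina3m at 71.6 FPKM (others 0 to 26), Serpina3n at 264 (others 13.3 to 103) and Serpina1b at 1748 (others 354 to 738). Animal 35A of the 3000 ppm DEHP group had Serpina4-ps1 at 64.2 FPKM in frozen liver (others 3.30 to 11.2) and 54.6 in FFPE (others 4.62 to 7.39), so the same animal was set off in both preparations.

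The top-dose effects of DEHP and DCA in frozen liver differed by the test of the difference for 2 of 9 genes, where 13.3% of all genes were called. The difference, DEHP minus DCA on the log2 scale, was 2.05 for Serpina1e and -2.09 for Serpina3m. The Serpina3m call was lost without animals 52, 98 and 101 (-0.95, adjusted p = 0.0547), and the Serpina1e call without animal 29B (adjusted p = 0.0680), both by edgeR.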

How the results depend on the processing

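Of 119 counts of called genes under other settings 102 stayed within 1.5 times the reported count, as did 154 of 170 with 1 library or animal left out. Of 1071 fold changes under other settings 978 kept direction and side of the threshold, 37 lost the call, 19 gained it and 37 changed sign. With 1 library or animal left out those numbers were 1428 of 1530, 61, 8 and 33. The cause of these changes was not tested. Settings that leave out animals 52, 98 and 101, or 35A and 67C, and shares from expected counts were chosen after seeing the data. When the header code entered the model the count was 1 at 1500 ppm and 3 at both 3000 and 6000 ppm in DEHP frozen liver, 1 at 1500 ppm in DEHP FFPE, and 0 at 2 and 3.5 g/L in DCA FFPE. The second count table gave 1 at 1500 ppm in DEHP frozen liver. That table holds none of the 9 genes for DCA FFPE and lacks animal 40A in DEHP frozen liver, so it was not run there or for that animal, nor between chemicals. The fit of compared groups alone gave 2 at 6000 ppm in DEHP FFPE and 1 at 1 g/L in DCA frozen liver. DESeq2 gave 2 at 3.5 g/L in DCA FFPE. Between chemicals the count was 1 without animals 52, 98 and 101. The pairing mattered between preparations: with no replicate block the count at dose 0 was 3 in DEHP and 1 in DCA. The DCA count was also 1 under DESeq2, with no filter, with the stricter filter and without animals 52, 98 and 101. The Serpina1e share in DCA frozen controls was 48.7% from expected counts.

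Leaving out 1 library gave counts from 1 to 4, 5 to 9 and 6 to 8 in DEHP frozen liver, 1 to 3, 2 to 4 and 1 to 4 in DEHP FFPE, and 1 to 2 between chemicals. Signs changed for genes without a call, apart from Serpina3m at 3.5 g/L, called lower (-0.76) without animals 52, 98 and 101. These animals were left out after their high Serpina3m was seen, so that call follows from the selection. Without those animals Serpina3m at 1 g/L was -0.21, the difference between chemicals 0.038 for Serpina1a and -0.11 for Serpina1d, and the DCA preparation difference in effect 1.63 for Serpina4-ps1. With the header code as a term, Serpina1a at 1 g/L in DCA frozen liver was 0.047, and Serpina4-ps1 in DCA FFPE 1.37 at 2 g/L and 0.98 at 3.5 g/L. With DESeq2's size factors, in DESeq2 and then in edgeR, DCA FFPE at 1 g/L gave 0.027 and 0.028 for Serpina1a, 0.31 and 0.31 for Serpina1b, 0.20 and 0.20 for Serpina1c, 0.21 and 0.21 for Serpina1d, 0.16 and 0.16 for Serpina3k, and 0.16 and 0.086 for Serpina3m. At 2 g/L they gave 0.10 and 0.11 for Serpina1a, 0.064 and 0.067 for Serpina1b, and 0.50 and 0.51 for Serpina3n, and at 3.5 g/L 0.90 and 0.84 for Serpina3m. Between DCA preparations they gave 0.16 and 0.15 for Serpina3n, and for the difference in effect 0.021 and 0.00060 for Serpina1c and 0.41 and 0.79 for Serpina4-ps1. Between DEHP preparations Serpina4-ps1 was -0.016 with no filter and -0.0018 with no replicate block, and the DCA difference in effect 0.16 with no replicate block. With 1 library left out, DCA frozen liver at 1 g/L ranged from -0.13 to 0.0089 for Serpina1a, -0.030 to 0.036 for Serpina1c, -0.22 to 0.58 for Serpina3m, -0.29 to 0.060 for Serpina3n and -0.032 to 0.58 for Serpina4-ps1, and at 2 g/L from -0.35 to 0.076 for Serpina3n. DCA FFPE ranged at 1 g/L from -0.45 to 0.11 for Serpina1b, -0.40 to 0.046 for Serpina1c and -0.21 to 0.46 for Serpina4-ps1, and at 2 g/L from -0.84 to 0.11 for Serpina3n. The difference between chemicals ranged from -0.12 to 0.032 for Serpina1a, -0.098 to 0.16 for Serpina1c, -0.086 to 0.11 for Serpina1d and -0.086 to 0.88 for Serpina4-ps1. Between preparations Serpina4-ps1 ranged from -0.048 to 0.11 in DEHP and -0.035 to 0.43 in DCA, and in the DCA difference in effect from -1.33 to 0.68.

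Depth limits DCA FFPE most, where the median library held 504136.5 counts and 4772 genes passed the filter.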
